A study of Mus musculus with 18 samples.

Results

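The collagen chain genes are the mouse genes that encode the alpha chains of the collagen triple helices. They were taken as all protein-coding genes whose RefSeq symbol has the form Col, digits, a, digits, which gave 44 of the 21883 protein-coding genes on chromosomes 1 to 19, X and Y. For each of 12 peak lists of the histone mark H3K27me3, the peaks that overlapped the span of a gene extended by 1 kb at each end were collected. A gene with such a peak is called marked in that library, and the length of its extended span under peaks is its covered length in kb.

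The lists came from CUT&Tag, in which an antibody tethers a transposase that cuts the DNA around the mark, on single headfolds of mouse embryos at embryonic day 8.5. Every embryo was Gulo-/-, in supplied groups too, so none had the last enzyme of vitamin C synthesis. The 4 groups of 3 embryos were B6 without vitamin C, B6 with vitamin C, 129 without vitamin C and 129 with vitamin C, where supplied dams drank water holding 3.3 g/l. The series' design text gives the 129 animals as 129S6.B6-Gulo-/-. Each group held 2 females and 1 male, the 3 B6 embryos with vitamin C carried the same pregnancy code, and B6 replicates keep the numbers 1, 2 and 4. The comparisons ask whether vitamin C withdrawal, or the background, goes with a different distribution of the mark over these genes.

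H3K27me3 is laid down by Polycomb repressive complex 2, mostly around the CG-rich starts of genes that are silent in at least part of the cells. Collagens fall into fibril-forming chains, chains that sit on fibrils, network-forming chains of basement membranes, and membrane-bound chains. Vitamin C is a cofactor of the prolyl and lysyl hydroxylases that modify collagen chains, and of the TET and JmjC enzymes that oxidise DNA and histone methyl groups.

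At collagen genes with a listed start, the mark lay mainly around that start. The start sequences of 6 collagen genes, chosen after their values were seen, are therefore given here from RefSeq, build GRCm38.p6. Each is 300 bases, from 250 before to 50 after the start, read 5′ to 3′ on the gene's strand, with every CG dinucleotide in capitals. Where RefSeq lists several starts for a gene, the window with most CG was taken. Col8a2, Col15a1 and Col27a1 are marked genes of 3 collagen types with many, few and an intermediate number of CG. Col5a1, Col1a2 and Col3a1 encode fibrillar chains that had a peak in 0 of 12 libraries, and span the range of CG counts among such genes.
Col8a2 (chr4:126286544-126286843, strand +): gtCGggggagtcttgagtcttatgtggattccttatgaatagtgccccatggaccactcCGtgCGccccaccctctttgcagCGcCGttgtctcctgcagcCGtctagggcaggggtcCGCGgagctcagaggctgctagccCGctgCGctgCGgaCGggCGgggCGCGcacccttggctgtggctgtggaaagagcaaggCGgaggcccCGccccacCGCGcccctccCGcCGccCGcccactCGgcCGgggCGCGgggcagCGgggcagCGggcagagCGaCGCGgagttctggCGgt
Col15a1 (chr4:47207762-47208061, strand +): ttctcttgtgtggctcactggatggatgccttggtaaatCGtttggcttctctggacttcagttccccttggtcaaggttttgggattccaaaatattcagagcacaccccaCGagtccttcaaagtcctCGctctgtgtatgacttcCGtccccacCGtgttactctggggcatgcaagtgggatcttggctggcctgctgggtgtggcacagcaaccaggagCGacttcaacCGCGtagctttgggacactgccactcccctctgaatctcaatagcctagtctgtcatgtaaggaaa
Col27a1 (chr4:63215162-63215461, strand +): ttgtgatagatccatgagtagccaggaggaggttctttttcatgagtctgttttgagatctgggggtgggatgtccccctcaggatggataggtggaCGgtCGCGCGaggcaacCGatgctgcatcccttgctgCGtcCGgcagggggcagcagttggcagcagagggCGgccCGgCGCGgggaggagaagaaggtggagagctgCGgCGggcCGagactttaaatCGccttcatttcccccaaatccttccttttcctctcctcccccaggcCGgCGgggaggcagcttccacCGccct
Col5a1 (chr2:27886175-27886474, strand +): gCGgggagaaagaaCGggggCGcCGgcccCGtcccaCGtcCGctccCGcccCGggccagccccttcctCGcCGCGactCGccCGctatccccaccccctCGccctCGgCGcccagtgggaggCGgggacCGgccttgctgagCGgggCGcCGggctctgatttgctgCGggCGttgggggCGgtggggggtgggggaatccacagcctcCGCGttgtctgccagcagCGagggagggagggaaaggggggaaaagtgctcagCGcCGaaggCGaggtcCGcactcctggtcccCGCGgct
Col1a2 (chr6:4505368-4505667, strand +): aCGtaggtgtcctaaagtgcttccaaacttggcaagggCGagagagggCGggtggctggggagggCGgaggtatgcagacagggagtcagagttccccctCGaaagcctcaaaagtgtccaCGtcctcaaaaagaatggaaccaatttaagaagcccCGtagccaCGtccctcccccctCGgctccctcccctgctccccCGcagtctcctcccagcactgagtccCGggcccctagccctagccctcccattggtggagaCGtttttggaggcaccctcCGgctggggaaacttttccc
Col3a1 (chr1:45311288-45311587, strand +): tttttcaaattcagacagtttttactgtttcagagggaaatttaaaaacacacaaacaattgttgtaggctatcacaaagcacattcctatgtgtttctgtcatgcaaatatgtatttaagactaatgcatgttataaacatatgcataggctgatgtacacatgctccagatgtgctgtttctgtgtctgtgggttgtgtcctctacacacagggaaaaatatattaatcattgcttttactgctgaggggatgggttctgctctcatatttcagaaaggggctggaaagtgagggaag

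The Col8a2 window held 32 CG, that of Col15a1 8 and that of Col27a1 18. Among the unmarked fibrillar genes, Col5a1 held 34 CG, Col1a2 13 and Col3a1 0. The whole Col8a2 window lay under a peak in 11 libraries, that of Col15a1 in 10 and that of Col27a1 in 8.

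H3K27me3 peaks were found at 18 of the 44 collagen genes in at least 1 library (40.9%), where 20.2% of all protein-coding genes were marked. At least 10 of 12 libraries carried a peak at 6 collagen genes (13.6%), against 5.93% of all protein-coding genes. Those 6 were Col8a2, Col19a1, Col14a1, Col26a1, Col1a1 and Col15a1. Peaks in all 12 libraries were found at Col8a2 alone, which is 2.27% of the collagen genes against 2.18% of all genes. Collagen genes are long, with a median span of 114.41 kb against 17.17 kb for all protein-coding genes, and 26 of the 44 spans reached 100 kb. Of all genes that long, 39.5% were marked in at least 1 library and 8.15% in at least 10. The collagen shares cover spans of every length, so they are not a like-for-like match for these shares of long genes. Collagen genes that long were not counted apart.

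**Figure D1:**
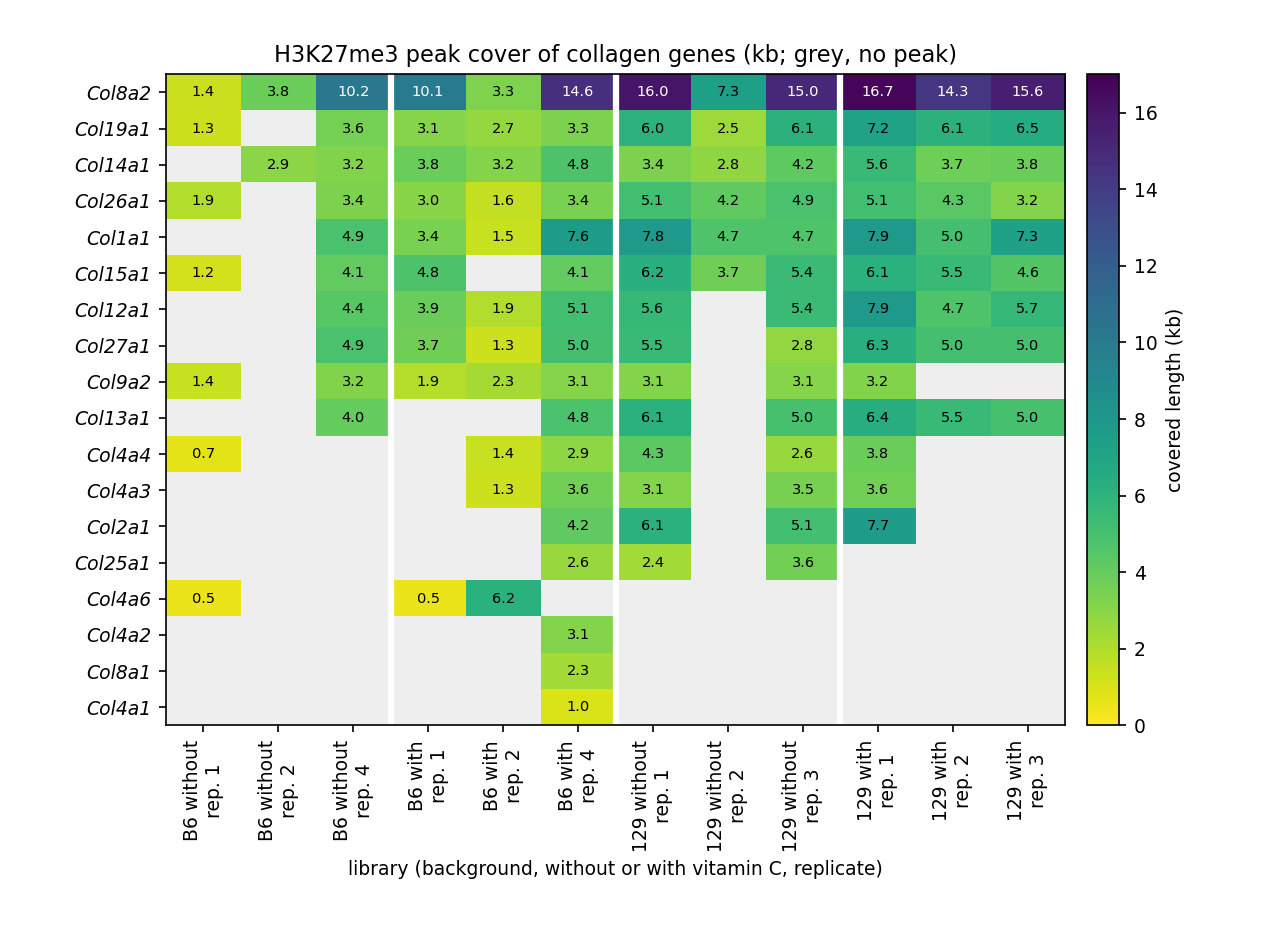
Length under H3K27me3 peaks in kb (colour and number; grey, no peak) for the 18 collagen genes marked in at least 1 library (rows) in each of 12 libraries (columns, by background, vitamin C and replicate; white lines part the groups). Col8a2 is marked in every column, and 3 genes at the bottom, Col4a2, Col8a1 and Col4a1, are marked in 1 B6 library with vitamin C alone.

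Lists differed widely in length, from 748 to 4726 peaks, and covered 3.58 to 31.7 Mb. They also differed in peak width, with library medians of 1.32 to 8.45 kb, and the B6 libraries without vitamin C replicate 1 and with vitamin C replicate 2 were the 2 with a median under 2 kb. The number of reads behind each list is unknown. The number of marked collagen genes was 7, 2 and 10 in B6 libraries without vitamin C, against 10, 11 and 17 in B6 libraries with it. It was 14, 6 and 14 in 129 libraries without vitamin C, against 13, 9 and 9 in 129 libraries with it. Group ranges overlapped or touched in both backgrounds. The share of all protein-coding genes marked was 6.62%, 2.97% and 10.5% in B6 without vitamin C against 9.47%, 10.3% and 17.1% in B6 with it, and 13.6%, 5.43% and 14.1% in 129 without vitamin C against 14.0%, 8.90% and 11.6% in 129 with it. In B6 both counts averaged lower without vitamin C, while in 129 the collagen mean was slightly higher without vitamin C and the mean over all genes slightly lower (11% ± 4.87 without against 11.5% ± 2.55 with, SD, n = 3 each), within the spread of libraries. In every library the collagen share was the higher, by 1.53 to 2.5 times with a median of 2.28. This compares long genes with genes of every length. Genes of at least 100 kb were marked at 2.27% to 32.8% per library, with a median of 19.1%. The collagen share was above these in every library too. The gap was narrowest in 129 with vitamin C replicate 3 (20.5% against 19.3%), and by ratio widest in B6 without vitamin C replicate 2 (4.55% against 2.27%). The latter library had the fewest marked genes, both collagen genes and all genes.

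**Figure D2:**
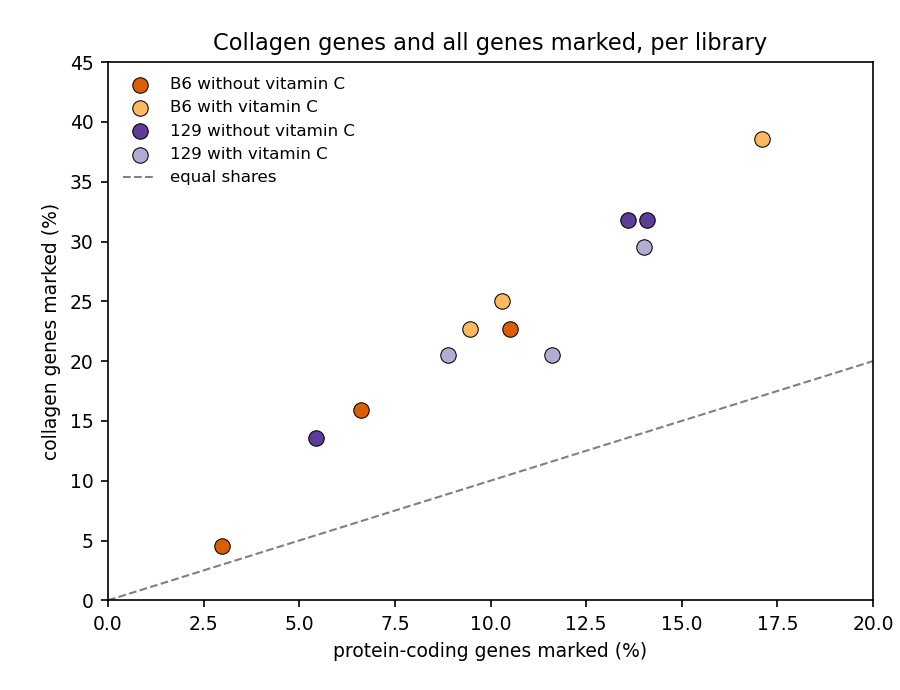
Share of collagen genes marked (vertical axis, %) against the share of all protein-coding genes marked (horizontal axis, %), 1 point per library, coloured by group; the dashed line marks equal shares. All 12 points lie above the line, and the collagen share runs from 4.55% to 38.6%. The gene sets are not matched for span length.

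By collagen class, none of the 6 type VI chains, which form beaded filaments around cells, was marked in any library, nor was Col7a1, the anchoring fibril chain of skin. Of 11 fibrillar genes, 3 were marked: Col1a1, Col27a1 and Col2a1. Among the 9 FACIT genes, whose products attach to fibrils, 4 were marked, namely Col19a1, Col14a1, Col12a1 and Col9a2. For scale, 20.2% of all protein-coding genes and 39.5% of those of at least 100 kb were marked in at least 1 library. Of 6 basement membrane type IV genes 5 were marked, yet none of these in more than 6 libraries. Col4a3 and Col4a4 shared the same peak in 5 libraries, and Col4a1 and Col4a2 shared their only peak, so these counts are not independent. The remaining marked genes were Col8a2 and Col8a1 of 3 short-chain network genes, Col15a1 of 2 multiplexins, Col26a1 of 2 unclassed genes, and Col13a1 and Col25a1 of 4 transmembrane genes. The other 26 genes had a peak in 0 libraries, among them Col1a2, Col3a1 and Col5a1 of the fibrils of skin and vessels and Col11a1 and Col11a2 of cartilage fibrils. In these whole headfolds, few cells with the mark and little of the mark per cell cannot be told apart.

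Col8a2, a type VIII chain of the sheet under the corneal endothelium, lies at chr4:126286794-126314330. It had the longest mean cover of the collagen genes, 10.7 kb. In B6 libraries its covered length was 1.35, 3.85 and 10.2 kb without vitamin C, against 10.1, 3.27 and 14.6 kb with it. In 129 libraries it was 16, 7.32 and 15.0 kb without vitamin C, against 16.7, 14.3 and 15.6 kb with it. The shortest value was in the B6 library without vitamin C replicate 1, and the values of both diets overlapped in each background. The cover fell into a pair of stretches, one over the start and one inside the gene, 7.17 to 18.5 kb downstream. The start stretch was present in 11 libraries at 1.22 to 9.06 kb and the interior stretch in 11 at 1.35 to 11 kb, with both in 10. The start stretch was missing in B6 without vitamin C replicate 1, and the interior stretch in B6 without vitamin C replicate 2.

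Col1a1, a chain of the type I collagen of bone, skin and tendon, lies at chr11:94936224-94953042. Its covered length was 0, 0 and 4.91 kb in B6 libraries without vitamin C, against 3.40, 1.45 and 7.64 kb in B6 libraries with it. In 129 libraries it was 7.80, 4.67 and 4.71 kb without vitamin C, against 7.90, 5.01 and 7.27 kb with it. Both libraries without a peak were B6 without vitamin C. The partner gene Col1a2, whose product joins that of Col1a1 in type I collagen, was marked in 0 libraries.

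Col27a1, a fibrillar chain of cartilage at chr4:63214009-63334991, was marked in 3 of 6 libraries without vitamin C and 6 of 6 with it. It was covered over 0, 0 and 4.88 kb in B6 without vitamin C, against 3.71, 1.27 and 5.01 kb in B6 with it. In 129 the lengths were 5.49, 0 and 2.76 kb without vitamin C, against 6.31, 5.01 and 4.99 kb with it. Col2a1, the chain of type II collagen of cartilage and notochord, had peaks in 4 libraries, of 4.18 kb in 1 B6 library with vitamin C, of 6.12 and 5.08 kb in 2 of 129 without vitamin C, and of 7.70 kb in 1 of 129 with it.

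The fibril-associated Col12a1 of tendon and fascia lies at chr9:79598987-79721141 and had the same 3 of 6 and 6 of 6 libraries as Col27a1. Its covered length was 0, 0 and 4.44 kb in B6 without vitamin C, against 3.86, 1.94 and 5.13 kb in B6 with it. In 129 it was 5.64, 0 and 5.43 kb without vitamin C, against 7.89, 4.65 and 5.66 kb with it. The 3 libraries without a peak at Col12a1 were those without one at Col27a1.

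Col19a1, another fibril-associated chain, lies at chr1:24257683-24587922. It was covered over 1.30, 0 and 3.58 kb in B6 without vitamin C, against 3.07, 2.70 and 3.34 kb in B6 with it. In 129 the lengths were 6.04, 2.51 and 6.10 kb without vitamin C, against 7.21, 6.08 and 6.49 kb with it. Values of the diets overlapped, and 5 of the 6 values of 129 lay above every B6 value.

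Col14a1, a fibril-associated chain at chr15:55307644-55520803, had 0, 2.93 and 3.25 kb in B6 without vitamin C, against 3.79, 3.18 and 4.78 kb in B6 with it. In 129 it had 3.35, 2.81 and 4.19 kb without vitamin C, against 5.56, 3.73 and 3.79 kb with it. Col9a2, a chain of the type IX collagen on cartilage fibrils, was marked in 4 of 6 libraries of either diet, at 1.45 to 3.21 kb.

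Col15a1 encodes a multiplexin of basement membranes at chr4:47207655-47313167. Its covered length was 1.16, 0 and 4.06 kb in B6 without vitamin C, against 4.77, 0 and 4.06 kb in B6 with it. In 129 it was 6.23, 3.68 and 5.41 kb without vitamin C, against 6.13, 5.49 and 4.56 kb with it. The diets overlapped in both backgrounds.

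Col26a1, a collagen with an EMI domain, lies at chr5:136741759-136883376. It had 1.94, 0 and 3.37 kb in B6 without vitamin C, against 3.04, 1.56 and 3.42 kb in B6 with it. In 129 it had 5.12, 4.16 and 4.88 kb without vitamin C, against 5.14, 4.34 and 3.17 kb with it. The lowest 129 value, in a library with vitamin C, was the only one of that background within the B6 range.

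Col13a1, a transmembrane collagen at chr10:61838234-61979206, was marked in 2 of 6 B6 and 5 of 6 129 libraries. Its covered length was 0, 0 and 3.99 kb in B6 without vitamin C, against 0, 0 and 4.78 kb in B6 with it. In 129 it was 6.12, 0 and 4.97 kb without vitamin C, against 6.43, 5.48 and 4.98 kb with it. The 1 unmarked 129 library was without vitamin C, replicate 2. Col25a1, a transmembrane collagen of neurons, had 2.60 kb in 1 B6 library with vitamin C and 2.37 and 3.60 kb in 2 of 129 without it.

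Col4a3 and Col4a4 encode type IV chains of the kidney glomerular basement membrane and lie head to head on chromosome 1. They shared the same peak in 5 libraries, so their values are not independent. Col4a4, the type IV gene with the longest mean cover, had 0.708, 0 and 0 kb in B6 without vitamin C, against 0, 1.44 and 2.89 kb in B6 with it. In 129 it had 4.30, 0 and 2.65 kb without vitamin C, against 3.82, 0 and 0 kb with it. The 0.708 kb peak of the B6 library without vitamin C lay 109 kb from the Col4a4 start and did not reach Col4a3. Col4a1 and Col4a2, the type IV chains of most basement membranes, also lie head to head, and 1 peak of 3.13 kb in B6 with vitamin C replicate 4 touched both.

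Col4a6, an X-linked type IV gene at chrX:141165403-141474095, differed from the others in where its peaks lay. Its covered length was 0.511, 0 and 0 kb in B6 without vitamin C and 0.511, 6.16 and 0 kb in B6 with it, and 0 in all 129 libraries. No peak came within 1 kb of its start. The 0.511 kb interval chrX:141290130-141290640, 183 kb from the start, was the same in both male B6 libraries, 1 without and 1 with vitamin C, at percentiles 92.2 without and 97.2 with vitamin C by maximum signal. By total signal, its percentiles were 83.9 without and 6.01 with vitamin C. The 6.16 kb were 3 separate peaks in the B6 library with vitamin C replicate 2.

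**Figure D3:**
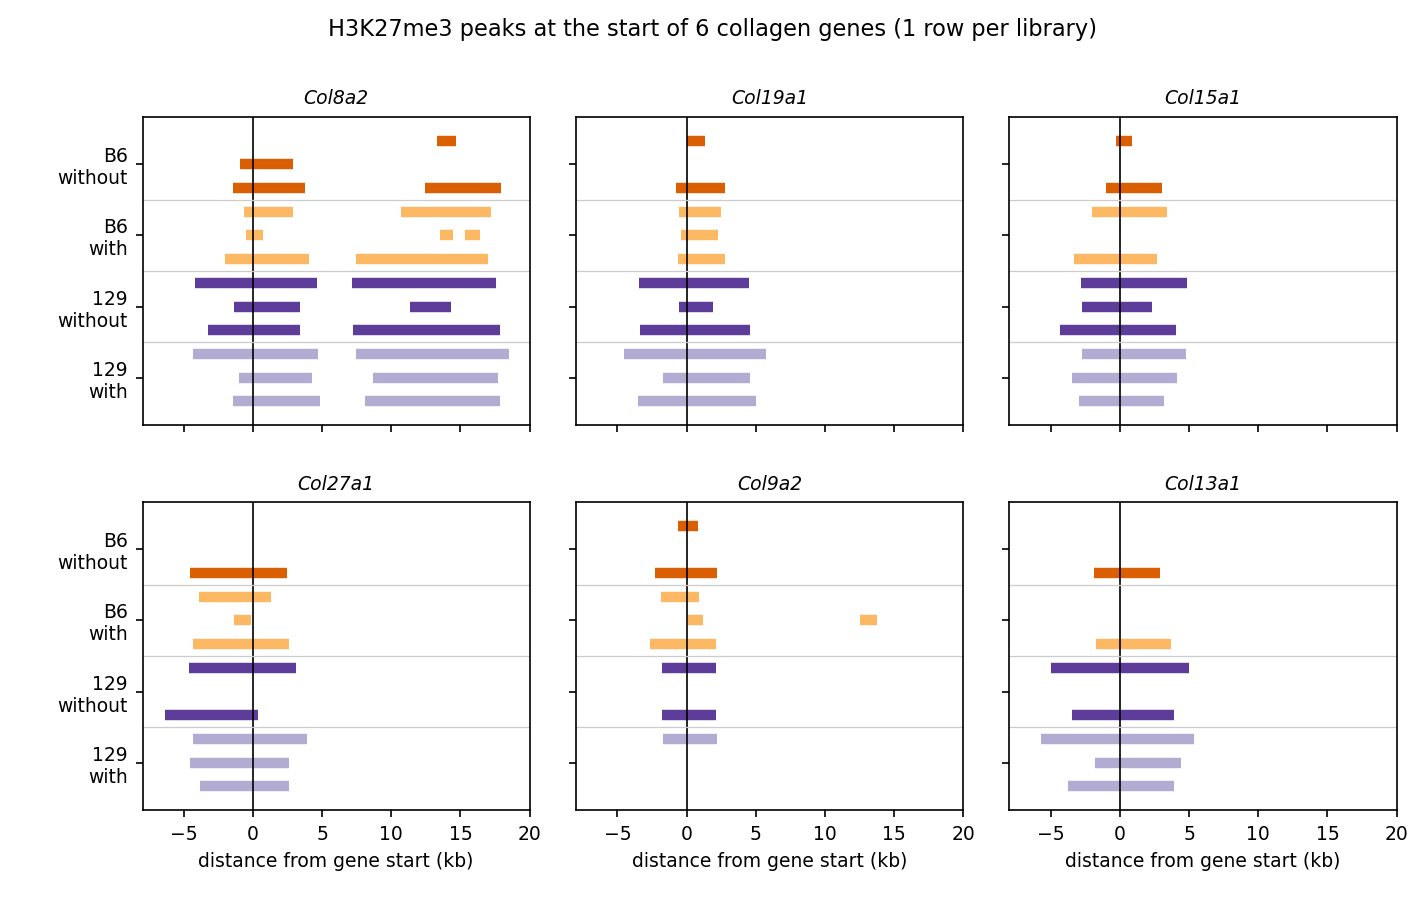
Extent of H3K27me3 peaks (bars, 1 row per library) against the distance from the gene start in kb, positive into the gene, at 6 collagen genes with a listed start; rows run from B6 without and with vitamin C to 129 without and with vitamin C. Peaks lie over the start line in all 6 panels, and Col8a2 alone has a repeated stretch inside the gene, 7.17 to 18.5 kb downstream.

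Most peaks lay near a listed gene start or, where no start is listed, near an end of the gene. In all, 132 distinct peaks overlapped the collagen genes, and 6 of them touched 2 members. The reference point was the listed RefSeq start for 35 genes, and for the other 9 the nearer end of the span, since the gene table carries no strand. Of the 132 peaks, 101 covered this point, 109 lay within 1 kb of it and 23 lay farther off, 12 of those at Col8a2 and 5 at Col4a6. Over the genes with a listed start, 67 of 72 collagen marks (93.1%) included a peak within 1 kb of the start, against 16287 of 20260 marks of all such genes (80.4%). No collagen peak reached the span of a protein-coding gene that is not a collagen gene. The median peak width was 5.06 kb.

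Within their own lists, collagen peaks ranked near the middle, with a median percentile of 55.9 by total signal and 51.6 by maximum signal. These signals are the authors' values per peak and were used only as ranks within a list. By total signal, the median percentile was 69.0 for Col15a1, 67.7 for Col14a1, 67.0 for Col8a2 and 66.4 for Col1a1. It was lower, at 19.4 for Col9a2 and 11.8 for Col2a1. The Col2a1 peaks were wide but low, at percentiles 0.258 to 4.24 by maximum signal. With each list cut to its 748 strongest peaks by total signal, the length of the shortest list, Col8a2 kept a peak in 6 libraries, Col14a1 and Col1a1 in 5 each, Col15a1 in 3, and Col26a1 and Col4a6 in 1 each.

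**Figure D4:**
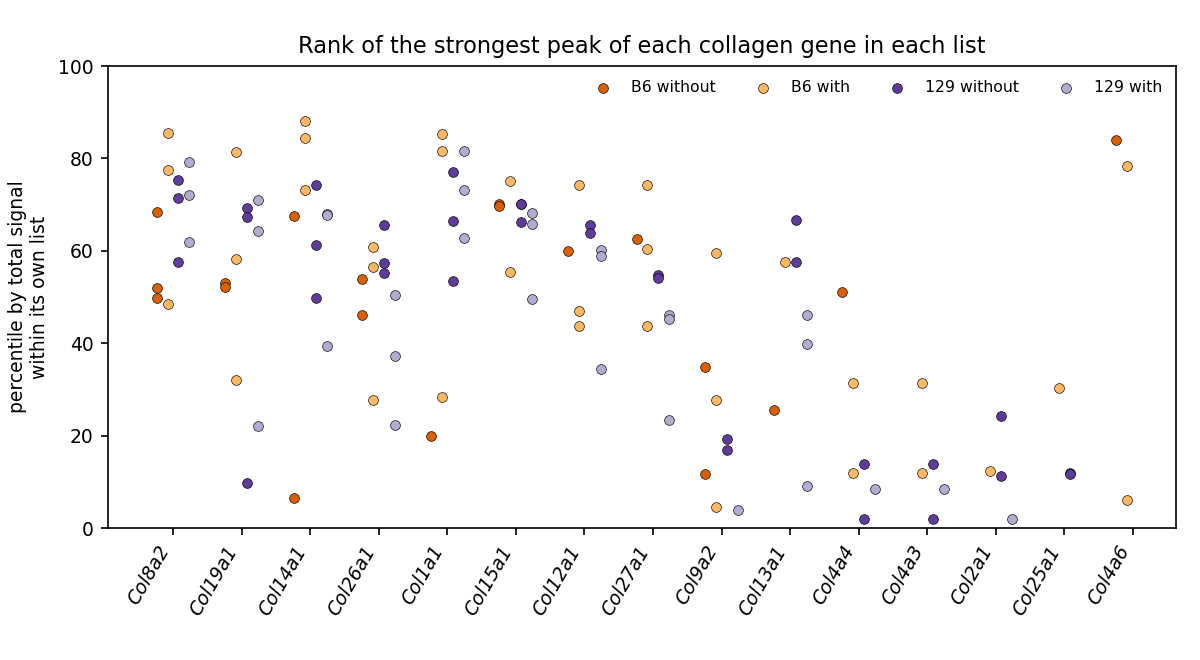
Percentile of the strongest peak of each collagen gene within its own list by total signal (vertical axis, 0 to 100; 100 is the strongest), for the 15 genes marked in at least 3 libraries, 1 point per marked library, coloured by background and vitamin C. Col15a1 stays between 49.5 and 75.2, while the Col2a1 peaks lie between 2.03 and 24.3.

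Across the 35 collagen genes with a listed start window, the median number of CG per 300 bases was 12, against 15 over all 17491 genes with a window. Windows of the 23 unmarked collagen genes held 0 to 34 CG with a median of 10, and the median was 33 for the 3 collagen genes marked in 1 or 2 libraries, 16 for the 6 marked in 3 to 9 and 16 for the 3 marked in at least 10. The collagen medians did not run in the order of the number of marked libraries, but these groups are small. Col14a1, Col26a1 and Col1a1, each marked in at least 10 libraries, have no listed window. The windows of Col4a1 and Col4a2 overlap, and 1 shared peak in 1 library marked both genes. Over all genes the medians were 13 for 14128 unmarked genes and 21 for 937 genes marked in at least 10. Letter searches over both strands found CG in 33 collagen windows (94.3%, against 95% of all windows), GGGCGG in 22 (62.9% against 48.1%) and TATAAA in 5 (14.3% against 12.9%). GGGCGG contains a CG, so those counts overlap.

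**Figure D5:**
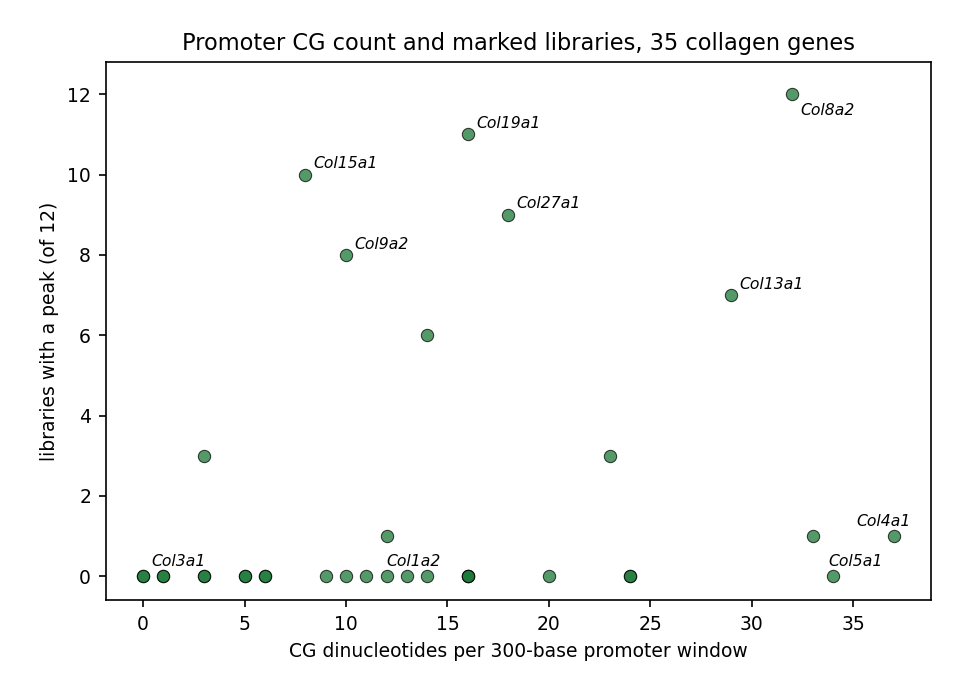
Number of libraries with a peak (vertical axis, of 12) against CG dinucleotides in the 300-base start window (horizontal axis) for the 35 collagen genes with a listed window; darker points are genes with the same values. Col8a2 with 32 CG is marked in 12 libraries, Col5a1 with 34 CG in 0, and Col15a1 with 8 CG in 10.

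For diet, 12 collagen genes were marked in fewer libraries without than with vitamin C (27.3%, against 13.5% of all protein-coding genes), and 1, Col25a1, in more (2.27% against 1.89%). Of all genes marked at least once, 66.8% had fewer marked libraries without vitamin C and 9.33% more. Of the 18 marked collagen genes, 12 had fewer and 1 had more. Col12a1 and Col27a1 had the largest difference, 3 libraries, a step that 1.48% of all genes reached, while 0.0228% had 3 or more extra libraries without vitamin C and 0 collagen genes did. Diet was permuted exactly within background, two-sided, with 400 relabellings, which allow a p of 0.005 at best. Col12a1 and Col27a1 both had an exact permutation p of 0.2 and an adjusted p of 1.0 over 4426 genes. Every library without a peak at either gene lacked vitamin C, so by presence 0.2 was the smallest p either could reach. By this test 0 collagen genes had an unadjusted p below 0.05, against 1 of the 4426 genes (0.0226%). For most of the 18, no labelling of their marked libraries could have given such a p. After adjustment 0 genes passed. With a smallest p of 0.005 over 4426 genes, none could pass unless very many genes came near that floor. Within a background, 0 collagen genes had a peak in 3 of 3 libraries on one side of the diet comparison and 0 of 3 on the other. Presence with vitamin C alone held for 0.311% of all genes in B6 and 0.00914% in 129. Presence without vitamin C alone held for 0.0% in B6 and 0.00457% in 129.

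Covered length was shorter without vitamin C for 16 of the 18 collagen genes tested (88.9%, against 84.7% of all genes tested) and longer for 2, none with an unadjusted p below 0.05, against 1.60% of genes tested, and 0 genes passed after adjustment. Col14a1 came nearest, averaging 2.75 kb without and 4.14 kb with vitamin C, a difference of -1.38 kb with exact permutation p = 0.05 and adjusted p = 1.0. Col12a1 differed by -2.27 kb and Col27a1 by -2.20 kb, each with exact permutation p = 0.115 and adjusted p = 1.0. The median difference was -0.63 kb over the 18 collagen genes tested and -0.61 kb over all genes tested.

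The diet difference was also set against itself between backgrounds, as the effect in B6 minus that in 129. On average 6.33 ± 4.04 collagen genes were marked in B6 without vitamin C, against 12.7 ± 3.79 in B6 with it (SD, n = 3 each). In 129 it was 11.3 ± 4.62 without vitamin C, against 10.3 ± 2.31 with it (SD, n = 3 each). For single genes, 0 collagen genes had an unadjusted p below 0.05 for this difference of differences (0.0452% of genes tested by marked libraries and 0.0904% by covered length), with a lowest exact permutation p of 0.2. Background was permuted within diet, so these p-values also take in any general background difference and do not isolate the difference of differences. Within 1 background the smallest possible p is 0.1, so no gene could pass there.

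For background, 11 collagen genes were marked in fewer B6 than 129 libraries (25% against 10.1% of all genes) and 5 in more (11.4% against 5.42%). Among genes marked at least once, these shares were 49.9% and 26.8%. By marked libraries 0 collagen genes had an unadjusted p below 0.05 for background, against 0.339% of genes tested, and 0 genes passed after adjustment. As for diet, most of the collagen genes could not have reached such a p by presence. A step of 3 libraries was reached by Col13a1, lower in B6 (1.71% of all genes), with exact permutation p = 0.26 and adjusted p = 1.0. It was also reached by Col4a6, higher in B6 (0.151% of all genes), with exact permutation p = 0.2 and adjusted p = 1.0. Every library with a Col4a6 peak was B6, so 0.2 was the smallest p this gene could reach by presence.

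Covered length was shorter in B6 for 13 of the 18 collagen genes tested (72.2%), against 74.5% of all genes tested. The median difference was -1.28 kb over the collagen genes tested and -1.13 kb over all genes tested. An unadjusted p below 0.05 was reached by 6 of the 18 collagen genes, all shorter in B6 (33.3%), against 13.2% of all genes tested (13.1% counting those shorter in B6), and 0 genes of any kind passed after adjustment. Col19a1 averaged 2.33 ± 1.40 kb in B6 and 5.74 ± 1.64 kb in 129 (SD, n = 6 each), a difference of -3.41 kb with exact permutation p = 0.01 and adjusted p = 0.311. Col26a1 differed by -2.25 kb (exact permutation p = 0.01), Col15a1 by -2.91 kb (0.02), Col8a2 by -6.93 kb (0.03), Col13a1 by -3.20 kb (0.035) and Col1a1 by -3.33 kb (0.045), with adjusted p of 0.311 to 0.341. Peak width of the whole list moved with background: the median was 1.32, 4.51 and 4.89 kb in B6 without vitamin C and 3.93, 1.41 and 4.69 kb in B6 with it, and 6.69, 4.10 and 6.22 kb in 129 without vitamin C and 8.45, 7.80 and 6.21 kb in 129 with it. When covered length was divided by the median peak width of its library, a step added after the data had been seen, 0 of the 6 genes kept a p below 0.05. Leaving out 1 library at a time, also added later, left 2 to 6 such genes. Library numbers run with the background, so library order and background cannot be told apart.

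Genes of the wider collagen pathway, from 7 lists with 74 genes, were marked in at least 1 library in 28 cases (37.8%, against 20.2% of all protein-coding genes) and in at least 10 in 8 (10.8% against 5.93%). No gene of the prolyl and lysyl hydroxylases and their partners was among those 8: P4ha1, P4hb, P3h1 to P3h4 and Plod1 to Plod3 had a peak in 0 libraries, P4ha2 in 1 and P4ha3 in 3. Of the same list of 14 chain modification genes, Colgalt2, a collagen galactosyltransferase gene named here after its value was seen, was the one marked most often, in 7 libraries. Gulo, which encodes the vitamin C synthesis enzyme inactivated here, had a peak in 0 libraries. The 8 were the procollagen protease gene Adamts2 and the crosslinking oxidase gene Lox, the collagen-binding integrin gene Itga11, the cartilage matrix genes Comp and Acan, the laminin gene Lamc3, and the skeletal factor genes Sox6 and Runx2. Comp was marked in 12 libraries, Itga11, Acan and Sox6 in 11, and the others in 10. Between diets, Nid1, a basement membrane linker, was marked in 3 of 6 libraries without vitamin C and 6 of 6 with it (exact permutation p = 0.2, adjusted p = 1.0). All libraries without a Nid1 peak lacked vitamin C, so 0.2 was its smallest possible p by presence. Between backgrounds, Ppib, Bmp1 and Loxl3 were each marked in 2 of 6 B6 and 5 of 6 129 libraries. They encode a prolyl isomerase, a procollagen protease and a crosslinking oxidase. At least 3 fewer marked libraries in B6 held for 1.71% of all genes. By covered length, background gave an exact permutation p of 0.195 for Ppib, 0.065 for Bmp1 and 0.075 for Loxl3. The adjusted p were 0.345 to 0.457. Ppib was covered over at most 1.57 kb. For diet, 0 of the 74 had an unadjusted p below 0.05, against 0.0226% of genes tested by marked libraries and 1.60% by covered length.

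The headfold genes Six3 and Sox1 were marked in 11 and 10 libraries, Otx2 in 3, Sox2 in 2 and Hesx1 in 0. Of the 6 cartilage, bone and tendon factor genes, Sox6 was marked in 11, Runx2 in 10, Sox5 in 5 and Sox9, Sp7 and Scx in 0. Of 3 housekeeping genes 1 was marked, Actb, in 1 library. Peaks of a repressive mark do not measure RNA, so the labelled tissue could not be checked by expression.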

How the data were processed

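H3K27me3 CUT&Tag peak lists of 12 single headfolds were used, and the 4 IgG samples and 2 further B6 H3K27me3 samples were not analysed here. Per the submitters' processing notes, the processing named cutadapt, Bowtie2, Picard, SEACR and mm10, with no order. What versions, settings and control set the peak threshold is not given in the sources used here. The deposited lists, 1 per library, have 6 columns, with the total and maximum signal of each peak as the authors gave them. Depth is unknown, list lengths may follow it, and no signal was compared between libraries.

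RefSeq (GRCm38.p6, the same assembly) gave gene spans and symbols. Any overlap of at least 1 bp between a peak and a span extended by 1 kb made the gene marked. Covered length was the part of that window under peaks. Genes marked in at least 1 library (4426) were tested by exact permutation of diet within background, or of background within diet (400 relabellings, two-sided, Benjamini-Hochberg over all of them, threshold 0.05). Within 1 background there are 20 relabellings. The difference of differences was tested by permuting background within diet. No adjusted p below 0.05 was possible unless very many genes came near the smallest p, 0.005. For presence, a gene's smallest possible p depends on its number of marked libraries, and for most collagen genes it was not below 0.05. Each embryo counted as 1 replicate, and embryos of a shared pregnancy may be less independent than the p-values assume. The test was checked on simulated data. Coordinates are 1-based.

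The collagen genes, the gene lists and the tests were chosen with earlier results of these data known. Values in every library are given for genes marked in at least 10 libraries, for genes that differ by 3 or more libraries between diets or backgrounds, and for the gene with the longest mean cover of each class. Pathway genes named are those in at least 10 libraries or with such a difference, and the hydroxylases and Gulo. Other genes named with values (Col2a1, Col9a2, Col4a1, Col4a2, Col4a3, Col25a1 and Colgalt2), and those in gene by gene accounts of the classes, were picked once their values had been seen. Other settings tried were extensions of 0 and 2.5 kb, an overlap of 500 bp, peaks near gene ends only, peaks of at least 1 kb or at or above the median maximum signal, equal lists of 748 peaks, averaging within a pregnancy, and each library left out. The software was pandas 2.3.3, NumPy 2.4.6 and Matplotlib 3.10.9 under Python 3.11.15.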

Additional observations from a re-analysis of the deposited data

How the results depend on the processing

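The difference in marked collagen genes per library, without minus with vitamin C, was -2.67 over both backgrounds as reported and 0.167 with equal lists of the 748 strongest peaks per library, a change of sign. In B6 it was -6.33 as reported, -0.333 with equal lists and -2.33 with peaks at or above the median maximum signal. B6 minus 129 was -1.33 as reported and 0.167 with equal lists, again a change of sign. The 6 collagen genes marked in at least 10 libraries became 0 with equal lists and 1 with peaks at or above the median maximum signal. For the marked libraries of single genes, without minus with vitamin C as a share of libraries, the sign changed for Col26a1 and Col4a6 with equal lists and for Col13a1 with peaks at or above the median maximum signal, each to 0.167 from -0.167. Col12a1 and Col27a1, with the largest diet difference at -0.5, were at 0 under both settings. Col15a1 was at 0 as reported and 0.5 with equal lists (exact permutation p = 0.2, the smallest it could reach there). With equal lists Col12a1 and Col27a1 had a peak in 0 libraries, so 0 was the only possible difference. Col26a1 and Col4a6 had a peak in 1 library each under that setting. Equal lists left 0 to 5 marked collagen genes per library, so differences there rest on few marks. The cause of these changes was not tested.

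With each library left out in turn, the diet difference ran from -3.58 to -1.33 over both backgrounds and from -8.17 to -4.17 in B6. In 129 it was 1.00 as reported and 0.667 with equal lists, and ran from -0.333 to 3.67, highest without 129 without vitamin C replicate 2 and turning negative without 129 without vitamin C replicate 1 or replicate 3. B6 minus 129 ran from -2.67 to -0.25. The number of collagen genes marked in at least 9 of the 11 libraries left ran from 6 to 8. The count with an unadjusted p below 0.05 for diet, and the counts of all genes with an adjusted p below 0.05 for diet and for background, ran from 0 to 0. No adjusted p below 0.05 was possible in these runs unless very many genes came near the smallest p.

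The 6 collagen genes with an unadjusted p below 0.05 for background in covered length became 0 with equal lists, 0 after division by the median peak width of each library, and 2 without both libraries of median peak width under 2 kb. They ran from 2 to 6 with 1 library left out, with 2 without replicate 1 of 129 without or 129 with vitamin C. They were 3 without B6 without vitamin C replicate 1 or 2, B6 with vitamin C replicate 2, or replicate 3 of 129 without or 129 with vitamin C. These alternatives for covered length were chosen after seeing the data. With equal lists Col13a1 and Col19a1 had a peak in 0 libraries and Col26a1 in 1, so none of these could reach such a p. Col15a1 kept a peak in 3 libraries, Col1a1 in 5 and Col8a2 in 6, so the fall to 0 rests on few marks. Of 231 values of 11 named genes under 21 alternatives, 186 kept their sign or stayed at 0, 14 went to 0, 28 left 0 and 3 changed sign, and 0 had an unadjusted p below 0.05 (lowest 0.05, exact permutation). The start-only alternative was run at either gene end because the gene table has no strand. No paired analysis was possible because the labels give no replicate numbers that pair embryos across groups.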
